A study of Mus musculus with 10 samples.

Results

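Interferon-stimulated genes (ISGs) outside the Gbp, Slfn and Ifi200 families were followed in sorted CD4 CD8 double-positive (DP) thymocytes that lacked the transcription factor E2A, encoded by Tcf3, or HEB, encoded by Tcf12, or lacked both. The list held 39 genes by symbol. A probe set carrying that symbol alone was present for 37 of them, out of 19937 named genes on the array, and the probe set with the highest mean was taken for each gene. Ifi44 had no probe set by that symbol and the only probe set of Isg15 carried a further symbol, so neither has a value here. Of the 37, 32 were tested, because their values reached the 40th percentile over all probe sets on 2 or more arrays (called the detection percentile below). Ifit3, Mx1, Mx2, Dhx58 and Ifitm3 did not.

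RNA came from DP cells of 10 individual mice, all Cd4-cre+ and 8 weeks old, with 1 Affymetrix array per mouse. WT (wild-type cd4-cre+) had n = 3, E2AKO (E2Aflox/flox Cd4-cre+) n = 2, HEBKO (HEBflox/flox cd4-cre+) n = 2 and DKO (E2Aflox/flox HEBflox/flox cd4-cre+) n = 3. The Cre is driven by the Cd4 gene, so the floxed alleles are deleted in T-lineage cells that have begun to express Cd4, and the controls carry the same Cre without floxed alleles. Values are log2 intensities. A difference of 1 is a doubling.

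Type I interferons bind the receptor made of Ifnar1 and Ifnar2, whose kinases Jak1 and Tyk2 phosphorylate STAT proteins. STAT2 and IRF9 then take part in a complex that binds the interferon-stimulated response element in the promoters of ISGs. The products sense viral RNA, degrade or mask it, limit nucleotide supply or block viral entry and budding, and several of them, such as IRF7 and STAT2, feed back on the pathway. Many ISGs are also transcribed at a low level without infection. E2A and HEB are basic helix-loop-helix factors that bind E boxes.

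The promoters of 2 genes that rose in DKO and hold the response element, Ifit1 and Oas3, are shown with that of Samhd1, which had the largest difference. Each line gives the 250 bases before the annotated start in GRCm38.p6 (sequence from RefSeq), read 5′ to 3′ on the strand of the gene. The Ifit1 stretch is chr19:34640639-34640888 on the plus strand, the Oas3 stretch chr5:120777660-120777909 on the minus strand and the Samhd1 stretch chr2:157135097-157135346 on the minus strand. Capitals mark the core of the response element (GAAA, any 2 bases, GAAA), on either strand in Ifit1 and Oas3, and TTCNNNGAA, a STAT dimer site, in Samhd1.
Ifit1: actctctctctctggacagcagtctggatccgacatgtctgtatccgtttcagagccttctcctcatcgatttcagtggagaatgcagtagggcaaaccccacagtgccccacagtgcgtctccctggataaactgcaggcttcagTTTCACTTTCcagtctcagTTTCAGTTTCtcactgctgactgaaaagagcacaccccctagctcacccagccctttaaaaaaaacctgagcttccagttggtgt
Oas3: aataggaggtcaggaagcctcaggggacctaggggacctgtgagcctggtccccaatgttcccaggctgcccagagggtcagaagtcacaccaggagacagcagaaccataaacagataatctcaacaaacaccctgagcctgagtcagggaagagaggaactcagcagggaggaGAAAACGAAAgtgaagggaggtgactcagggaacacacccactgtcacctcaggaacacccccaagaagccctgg
Samhd1: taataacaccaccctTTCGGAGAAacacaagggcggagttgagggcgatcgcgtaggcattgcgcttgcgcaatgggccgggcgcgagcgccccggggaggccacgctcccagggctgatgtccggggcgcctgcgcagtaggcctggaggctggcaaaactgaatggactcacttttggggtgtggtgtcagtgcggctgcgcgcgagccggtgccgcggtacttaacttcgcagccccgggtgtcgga
Ifit1 held 2 copies of the response element core, whose first bases lay 104 and 85 bases before the start, and Oas3 held 1 at 75 bases. Samhd1 held no copy in its window, and its STAT site lay 235 bases before the start.

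A promoter window of 300 bases, from 250 before to 50 after the start, was present for 29 of the 39 genes. The response element core (GAAA, any 2 bases, GAAA), searched on both strands, was found in 12 of the 29 (41.4%), against 3.99% of all 27025 genes with a window. TTCNNNGAA, which reads the same on both strands, was found in 11 (37.9%, against 9.55% of all genes), and CANNTG, the E box, also the same on both strands, in 22 (75.9%, against 75.0%). Among the 7 genes called higher in DKO, the response element core was in Ifit1, Oas3 and Ddx58, where it began 2 bases past the start. The windows of Irf1, Ifi35 and Samhd1 held the STAT site and not that core, and the 2 windows of Irf9 held neither. A match is a stretch of letters, and a window without one says nothing about sites elsewhere.

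The array labelled DKO 1 stood apart from the other arrays in these genes. It held the highest value of all 10 arrays in 21 of the 32 tested ISGs, where it held the highest value in 7.5% of all 13138 genes tested. DKO 2 was highest in 0 ISGs (6.58% of all genes) and DKO 3 in 4 (15.6%). The median ISG lay 0.51 above the WT mean in DKO 1, 0.08 above it in DKO 2 and 0.20 above it in DKO 3. The median over all genes tested lay within 0.02 of the WT mean in each of the 3 WT and 3 DKO arrays. In DKO 1, 17 of 32 ISGs lay at least 0.5 above the WT mean (5.47% of all genes did), against 3 in DKO 2 (6.1%) and 6 in DKO 3 (7.7%). Ifit1, which passed the filter only through the DKO arrays, is among the genes counted for DKO 1 and DKO 2. In the 4 single-knockout arrays the median ISG minus the WT mean ran from -0.03 to 0.07. Differences between DKO and WT are therefore given with and without DKO 1.

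**Figure D1:**
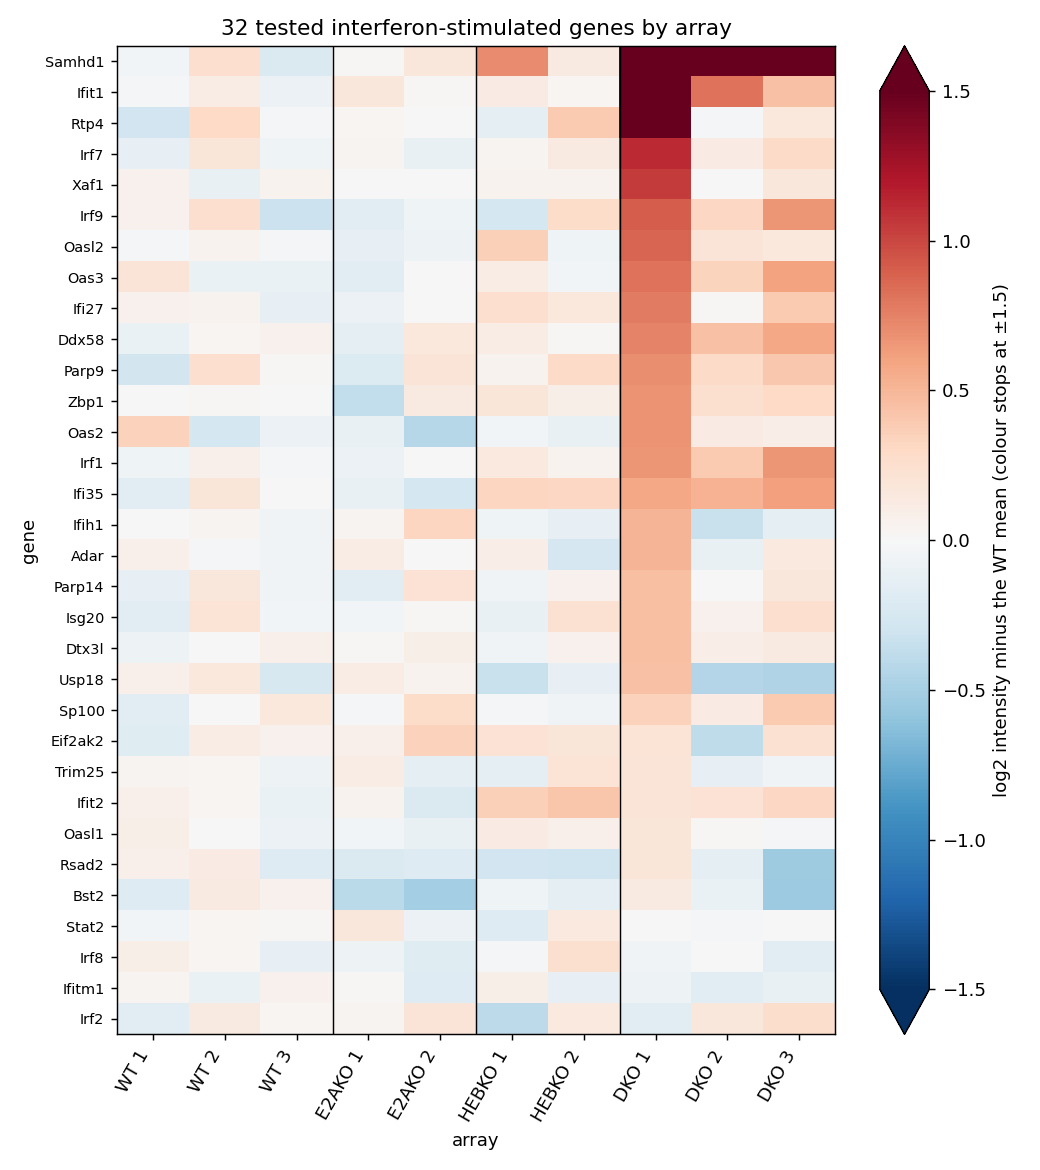
Heat map of the 32 tested ISGs (rows, ordered by DKO 1) in the 10 arrays (columns), as log2 intensity minus the mean of the 3 WT arrays. Colour stops at ±1.5, so Samhd1 in all DKO arrays and Ifit1 and Rtp4 in DKO 1 are off the scale. The DKO 1 column is high for most rows, with 17 genes at least 0.5 above the WT mean.

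Sex was not given in the labels used here, and sex-linked genes differed within every group. Xist, which is transcribed from the inactive X chromosome, lay at 11.82 to 12.20 in WT 2, E2AKO 1, HEBKO 1, DKO 1 and DKO 3, and at 5.00 to 5.45 in the other arrays. The Y-linked Eif2s3y ran the other way, at 4.05 to 4.30 and 9.38 to 10.31. DKO 1 and DKO 3 thus had alike Xist levels, and the part of this difference in the ISG values was not tested.

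The deleted genes followed the labels in direction. Tcf3 lay at 9.63 to 9.85 in WT, 9.23 and 9.12 in E2AKO, 10.02 and 10.06 in HEBKO and 8.93 to 9.29 in DKO. Tcf12 lay at 11.74 to 11.91 in WT and 10.68 to 11.48 in the HEBKO and DKO arrays. The median intensity of an array ran from 92.6 to 98.6. Of the DP marker list, 9 of 10 genes were measured and 6 fell in DKO, among them Rag1, Rag2 and Cd4. The summed intensity of that list was 46038 to 48165 in WT and 24835 to 28541 in DKO. That of 4 markers of mature single-positive cells, all 4 of which rose, was 483 to 544 in WT and 2008 to 2663 in DKO. In sorted bulk cells, a different mix of cells and a different amount of RNA per cell cannot be told apart. The part of this marker shift in the ISG values below was not tested.

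Loss of both factors raised 7 of 32 ISGs against WT and lowered 0, with 25 not past the test (limma adjusted p under 0.05 over all genes). The 7, Samhd1, Ifit1, Irf9, Ddx58, Oas3, Irf1 and Ifi35, make 21.9% of the ISGs tested. Ifit1 passed the intensity filter only through the DKO arrays, where it was high, so its place in this count is no separate support. Of all genes tested, 8.18% were called higher and 5.41% lower. At an unadjusted p under 0.05, 14 of 32 ISGs stood out, where 3378 of all 13138 genes tested did. Of the 32 differences, 26 were above 0. The median difference was 0.27, against -0.01 over all genes. Without DKO 1, 6 of the 7 remained past the test, with Irf9 lost, and 6.59% of all genes were called higher and 4.16% lower. The median then was 0.14, with 22 of 32 above 0. The count was 4 without WT 3 (Irf1, Ddx58, Ifi35 and Samhd1), where 4.14% of all genes were called higher and 3.42% lower.

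Samhd1 encodes an enzyme that breaks down deoxynucleoside triphosphates and so limits reverse transcription. It was 6.09, 6.39 and 5.92 in WT 1 to 3, and 8.80, 7.95 and 9.53 in DKO 1 to 3. The single knockouts gave 6.15 and 6.31 (E2AKO) and 6.84 and 6.27 (HEBKO). All DKO arrays lay above all others, and DKO 3 was the highest. The rise in DKO was 2.62 ± 0.31 (log2, SE; 6.16-fold, adjusted p = 0.000154), and 2.60 ± 0.35 without DKO 1 (adjusted p = 0.000947). In WT, 2 of 3 arrays were under the detection percentile, so the fold rests on a WT level near background.

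The transcription factors of the pathway moved unequally. Irf1, an activator first found at the interferon beta promoter, was 8.57, 8.72 and 8.62 in WT, and 9.30, 9.03 and 9.29 in DKO. Values were 8.55 and 8.64 with E2A alone lost and 8.78 and 8.69 with HEB alone lost. Its DKO and WT arrays did not overlap, and it rose by 0.57 ± 0.10 (adjusted p = 0.00270; 0.53 ± 0.11 without DKO 1). A further probe set of Irf1 lay at 6.61 to 6.90 in WT and 6.63 to 6.95 in DKO, and the mean of both probe sets gave 0.29 and no call (adjusted p = 0.0768). Irf9, the DNA-binding partner of STAT2, was 8.09, 8.28 and 7.70 in WT, and 8.93, 8.33 and 8.68 in DKO. The E2AKO pair lay at 7.87 and 7.96 and the HEBKO pair at 7.76 and 8.30. It rose by 0.63 ± 0.19 (adjusted p = 0.0456), while DKO 2 exceeded WT 2 by a small margin. The call of Irf9 was lost in 9 of 19 alternatives, among them the fits without DKO 1 (0.49 ± 0.20, adjusted p = 0.148), DKO 3, WT 1 or WT 3.

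Irf7, which amplifies interferon production, was 7.35, 7.65 and 7.40 in WT, and 8.58, 7.59 and 7.75 in DKO. The single knockouts gave 7.51 and 7.35 (E2AKO) and 7.50 and 7.60 (HEBKO). DKO 1 was the high array and DKO 2 lay within the WT range. The difference of 0.51 ± 0.21 did not pass (adjusted p = 0.141) and was 0.20 ± 0.12 without DKO 1. Stat2, the STAT specific to type I and III interferon signalling, was at -0.01 ± 0.11 with DKO arrays of 9.13 to 9.17 and WT arrays of 9.12 to 9.20. Irf2, which counters Irf1 at shared sites, was at 0.09, and Irf8, a factor of myeloid and dendritic cells, at -0.07. Without DKO 1, Stat2 was at -0.02, Irf2 at 0.22 and Irf8 at -0.08. None was called.

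**Figure D2:**
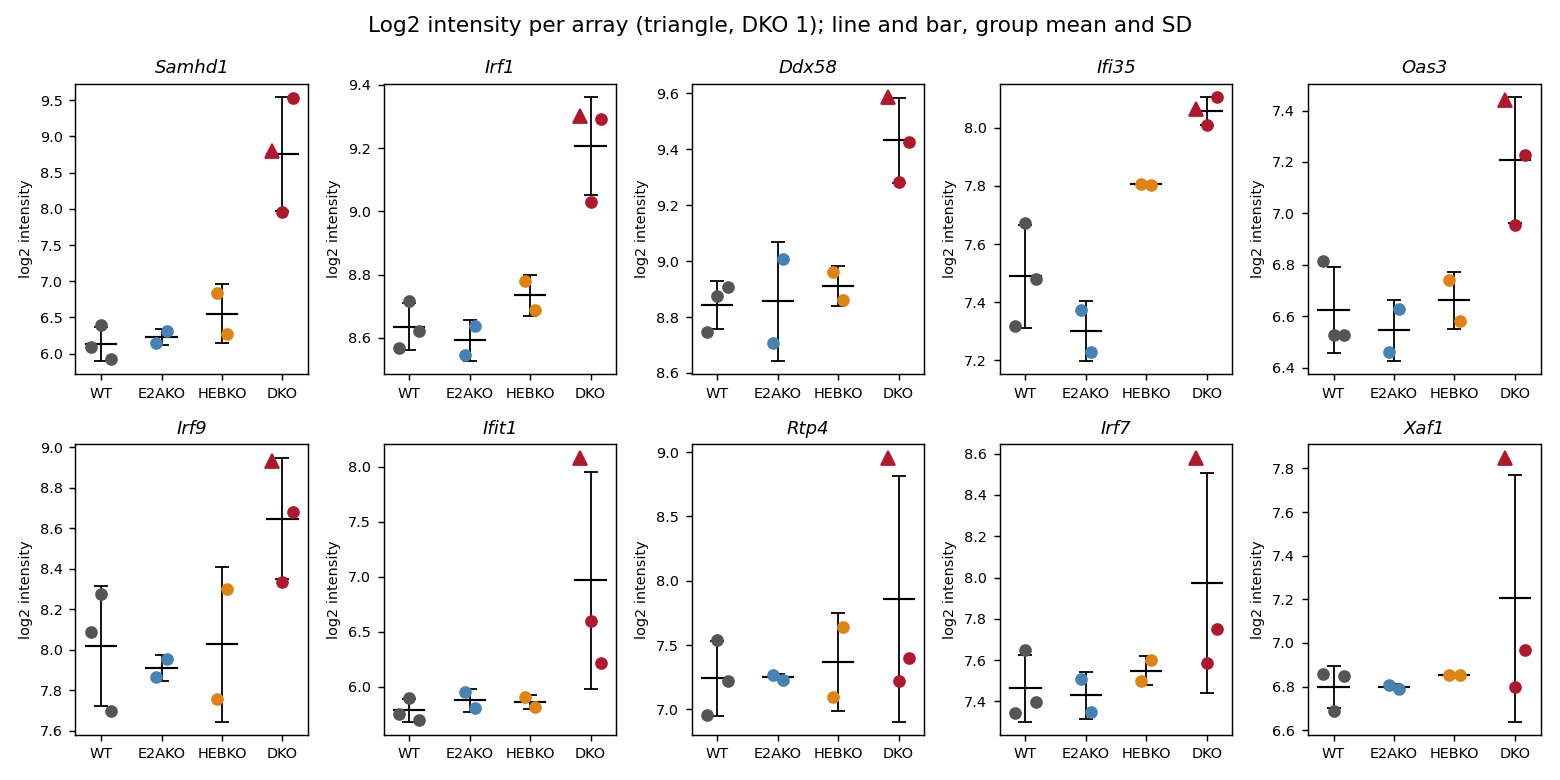
Log2 intensity per array for 10 ISGs by genotype, with the group mean (line) and SD (bar); the triangle is DKO 1. In Samhd1, Irf1, Ddx58, Ifi35 and Oas3 all 3 DKO arrays lie above the WT arrays, while in Rtp4, Irf7 and Xaf1 DKO 1 is high and DKO 2 lies within the WT range.

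The cytoplasmic sensors of viral RNA split. Ddx58, which encodes RIG-I, was 8.75, 8.88 and 8.91 in WT, and 9.59, 9.28 and 9.43 in DKO. Values were 8.71 and 9.01 with E2A alone lost and 8.96 and 8.86 with HEB alone lost. The DKO arrays lay above all others. Ddx58 rose by 0.59 ± 0.11 (adjusted p = 0.00452) and by 0.51 ± 0.12 without DKO 1 (adjusted p = 0.0209). Ifih1, which encodes the related sensor MDA5, was 6.90, 6.93 and 6.84 in WT and 7.41, 6.56 and 6.75 in DKO. DKO 1 was thus above the WT range and both other DKO arrays below it, with a difference of 0.01 ± 0.18 (adjusted p = 0.972) and -0.24 ± 0.12 without DKO 1 (adjusted p = 0.248). Zbp1, a sensor of Z-form nucleic acid, was 8.35, 8.38 and 8.36 in WT and 9.03, 8.60 and 8.66 in DKO, at 0.40 ± 0.14 (adjusted p = 0.0848), and at 0.27 ± 0.14 without DKO 1. Its WT and DKO arrays did not overlap. Dhx58, the third RIG-I-like gene, was under the detection percentile in 9 of 10 arrays and above it in DKO 1 (6.35).

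Effectors that bind or degrade RNA gave 2 calls. Oas3, a synthetase whose product activates RNase L, was 6.82, 6.53 and 6.53 in WT, and 7.44, 6.95 and 7.23 in DKO. The E2AKO pair lay at 6.46 and 6.63 and the HEBKO pair at 6.74 and 6.58. No DKO array overlapped another group, and Oas3 rose by 0.58 ± 0.13 (adjusted p = 0.0130; 0.47 ± 0.13 and adjusted p = 0.0487 without DKO 1). It lost its call without WT 3 (adjusted p = 0.0636). Its relatives Oas2 (6.71, 6.11 and 6.28 in WT, 7.04, 6.49 and 6.47 in DKO), Oasl2 (6.27, 6.34 and 6.26 in WT, 7.16, 6.48 and 6.45 in DKO) and Oasl1 were highest in DKO 1 and were not called. Their differences were 0.30, 0.41 and 0.06, and 0.11, 0.18 and -0.01 without DKO 1.

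Ifit1, which binds RNA that lacks the host cap methylation, was 5.75, 5.90 and 5.70 in WT, and 8.08, 6.60 and 6.22 in DKO. The single knockouts gave 5.95 and 5.80 (E2AKO) and 5.91 and 5.82 (HEBKO). The other groups were under the detection percentile in every array, and DKO 1 stood far above DKO 2 and DKO 3. The rise of 1.18 ± 0.35 (adjusted p = 0.0419) fell to 0.62 ± 0.13 without DKO 1, where the spread was smaller and the call held (adjusted p = 0.0116). It was lost in 9 of 18 alternatives, among them the fits without any 1 WT, E2AKO or HEBKO array. Ifit2, of the same cluster on chromosome 19, was 8.51, 8.47 and 8.34 in WT, and 8.63, 8.66 and 8.75 in DKO. Values were 8.49 and 8.22 with E2A alone lost and 8.80 and 8.86 with HEB alone lost. HEBKO and DKO lay above WT with no excess in DKO 1, and neither difference passed (0.39 ± 0.11 in HEBKO, adjusted p = 0.120, and 0.24 ± 0.10 in DKO, adjusted p = 0.145). Without DKO 1 the latter was 0.26 ± 0.12. Ifit3 stayed at 4.54 to 4.97 in all arrays, under the detection percentile.

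The other nucleic acid effectors were not called. Isg20, an exonuclease, was at 0.25, Adar, which edits double-stranded RNA, at 0.18, and Eif2ak2, the kinase PKR, at 0.02. Without DKO 1 these were 0.16, 0.02 and -0.07. Adar and Isg20 were highest in DKO 1. DKO 2 had the lowest Eif2ak2 of all arrays (7.09, against 7.30 to 7.59 in WT).

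Ifi35, an interferon-induced leucine zipper protein, rose with little spread among DKO arrays. It was 7.32, 7.67 and 7.48 in WT, and 8.06, 8.01 and 8.10 in DKO. The E2AKO pair lay at 7.37 and 7.23 and the HEBKO pair at 7.81 and 7.80. The order of means was E2AKO, WT, HEBKO and DKO, where HEBKO lay above all WT arrays without passing (0.32 ± 0.12, adjusted p = 0.199). The rise in DKO was 0.57 ± 0.10 (adjusted p = 0.00330) and 0.57 ± 0.12 without DKO 1.

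Rtp4, a receptor chaperone with antiviral action, and Xaf1, a partner of the apoptosis inhibitor XIAP, were the clearest cases of a single high array. Rtp4 was 6.96, 7.54 and 7.22 in WT, and 8.96, 7.22 and 7.40 in DKO. The single knockouts gave 7.27 and 7.23 (E2AKO) and 7.10 and 7.64 (HEBKO). DKO 1 was 3.28-fold above the WT mean while DKO 2 and DKO 3 lay within the WT range, and the difference of 0.62 ± 0.36 (adjusted p = 0.320) was 0.07 ± 0.19 without DKO 1. Xaf1 was 6.86, 6.69 and 6.85 in WT, 6.81 and 6.79 in E2AKO, 6.85 in both HEBKO arrays, and 7.85, 6.80 and 6.97 in DKO. It went from 0.41 ± 0.21 to 0.08 ± 0.11 without DKO 1, neither past the test.

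Ifi27 was 8.08, 8.06 and 7.89 in WT and 8.79, 8.02 and 8.40 in DKO, at 0.39 ± 0.16 (adjusted p = 0.132). Sp100, a nuclear body protein, was at 0.29 ± 0.12 (adjusted p = 0.149), with 10.69 to 11.01 in WT and 10.98 to 11.24 in DKO. Without DKO 1, Ifi27 was at 0.20 ± 0.13 and Sp100 at 0.26 ± 0.14. Neither gene passed the test, and Ifi27 in DKO 2 lay within the WT range.

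**Figure D3:**
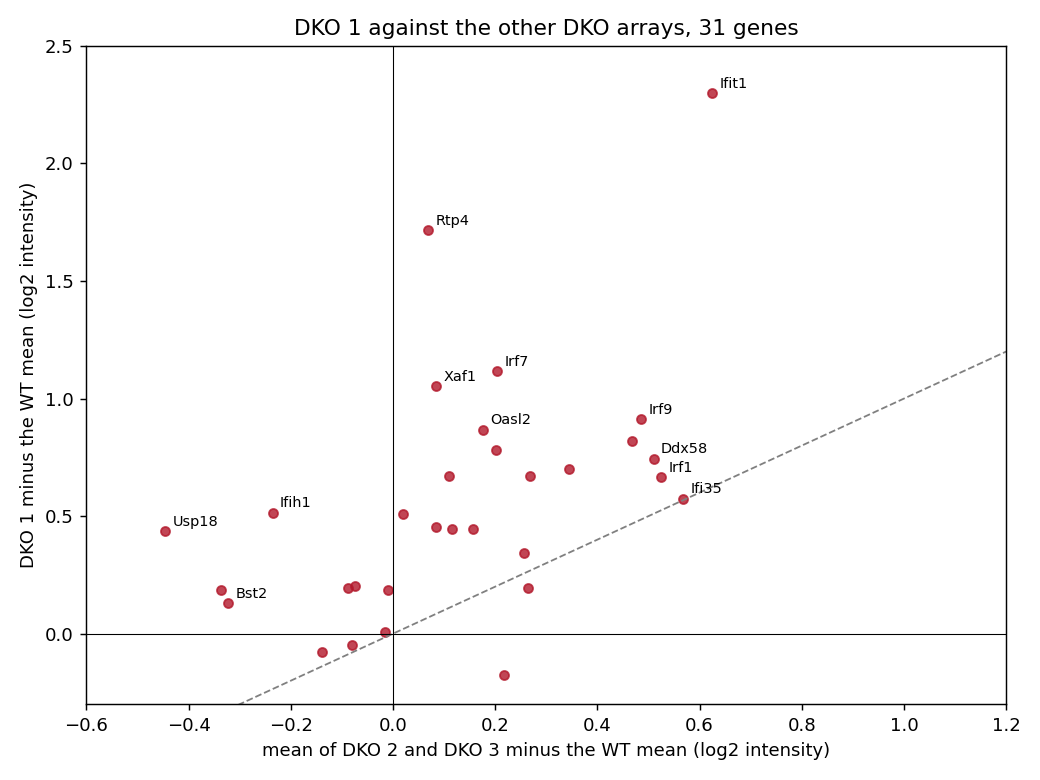
Log2 intensity in DKO 1 minus the WT mean (vertical) against the mean of DKO 2 and DKO 3 minus the WT mean (horizontal) for 31 ISGs; Samhd1, at 2.66 and 2.60, is left out for scale. The dashed line marks equal values; Ifi35, Irf1 and Ddx58 lie near it, and Rtp4 and Ifit1 lie far above it.

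Genes of ubiquitin, ISG15 and ADP-ribose turnover were not called, and 4 of the 5 tested were highest in DKO 1. Parp9 and Dtx3l, next to each other on chromosome 16, encode partners in a ubiquitin ligase complex. Parp9 was 8.10, 8.62 and 8.39 in WT and 9.07, 8.65 and 8.78 in DKO, at 0.46 ± 0.16 (adjusted p = 0.0805), and Dtx3l was at 0.23. Parp14, a further ADP-ribosyl transferase of that cluster, was at 0.21 and Trim25, the ubiquitin ligase that acts on RIG-I, at 0.01. Without DKO 1, Parp9 was at 0.35 ± 0.17, Dtx3l at 0.12, Parp14 at 0.08 and Trim25 at -0.09. Usp18, which removes ISG15 from proteins and restrains the receptor, was 7.32, 7.40 and 7.00 in WT and 7.67, 6.79 and 6.79 in DKO. DKO 1 was above the WT arrays and both other DKO arrays below them, so the difference was -0.15 ± 0.21 (adjusted p = 0.712), and -0.45 ± 0.13 without DKO 1 (adjusted p = 0.0556).

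Membrane-bound restriction factors showed no rise. Bst2 (tetherin), which holds budding virus at the cell surface, was 7.63, 7.96 and 7.88 in WT and 7.95, 7.72 and 7.27 in DKO. Rsad2 (viperin) was 6.27, 6.31 and 6.00 in WT and 6.38, 6.05 and 5.66 in DKO, with 2 of 3 DKO arrays under the detection percentile. Ifitm1, which blocks viral entry, was 6.34 to 6.51 in WT and 6.29 to 6.37 in DKO. In both Bst2 and Rsad2 DKO 1 was the highest and DKO 3 the lowest DKO array. None of the 3 was called, with differences of -0.17, -0.16 and -0.12, and of -0.32, -0.34 and -0.14 without DKO 1. Ifitm3, Mx1 and Mx2 were under the detection percentile in all 10 arrays. Mx1 and Mx2 are listed as transcribed pseudogenes in the gene models of the C57BL/6J reference.

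Across the ISGs, DKO 1 lay at least 0.5 above the mean of DKO 2 and DKO 3 in 10 of 32, namely Ifit1, Rtp4, Xaf1, Irf7, Usp18, Ifih1, Oasl2, Ifi27, Oas2 and Rsad2, against 0.883% of all genes, and at least 0.5 below it in 0 (1.06%). All 3 DKO arrays lay above all 3 WT arrays in 12 of 32 ISGs (16.7% of all genes) and below them in 0 (13.4%). The 12 were the 7 called genes with Ifit2, Oasl2, Parp9, Dtx3l and Zbp1. Ifit1, in both the 10 and the 12, passed the filter only through the DKO arrays.

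**Figure D4:**
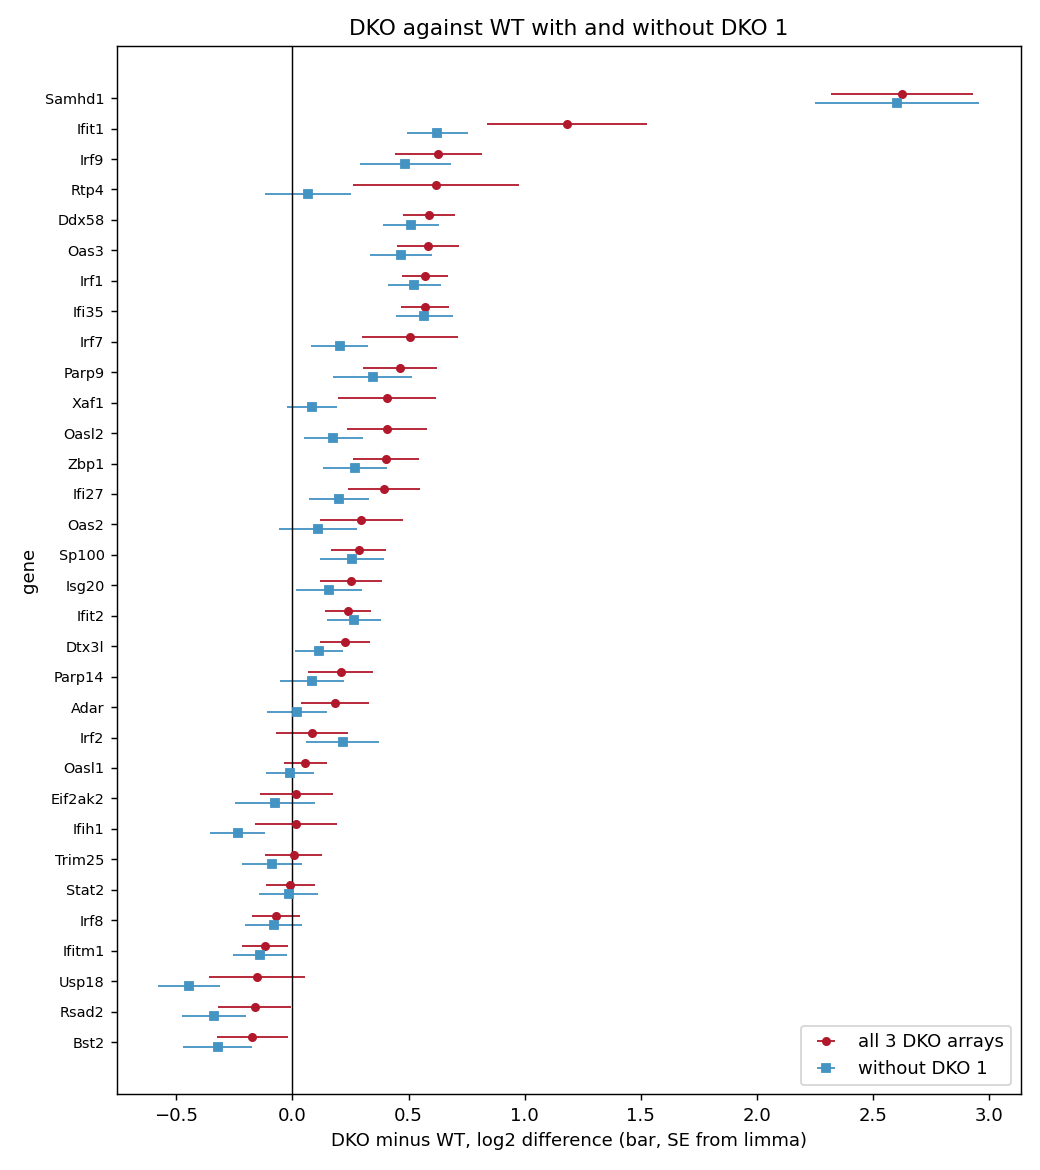
Log2 difference between DKO and WT for the 32 ISGs with all 3 DKO arrays (circles) and without DKO 1 (squares); bars are SE from limma. Samhd1, Ifi35, Irf1 and Ddx58 keep their place (0.57 in both fits for Ifi35), and the median over the 32 genes goes from 0.27 to 0.14.

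Markers of cell types that carry high ISG levels were set beside DKO 1. Of 6 markers of plasmacytoid dendritic cells, Siglech and Spib were under the detection percentile in all arrays. The summed intensity of the list, which includes Bst2, was 1917 in DKO 1, 2264 in DKO 2 and 1957 in DKO 3, against 2189 to 2507 in WT. That sum weighs Ly6d most, which was at 9.99 in DKO 1 and 10.33 to 10.69 in WT. Pacsin1 was also lower, at 6.51 against 6.89 to 7.15. Tcf4 went the other way, at 8.85 in DKO 1 and 8.62 to 8.73 in WT, and Bst2 lay within its WT range. The macrophage and dendritic sum was 518 in DKO 1, 522 in DKO 2 and 440 in DKO 3, against 500 to 568 in WT. Of the 10 measured markers of that list, 8 were under the detection percentile in all arrays, among them Itgax, Csf1r, Lyz2, Adgre1 and Cd74. The other two were H2-Ab1, an MHC class II chain, which was highest of all arrays in DKO 1 (6.51, with 6.39 in DKO 2, 5.90 in DKO 3 and 6.04 to 6.29 in WT), and Cd68, which was at 6.70 in DKO 1 and 6.91 to 7.15 in WT. The B cell sum was 243 in DKO 1, 215 in DKO 2 and 207 in DKO 3, against 287 to 363 in WT. Of its 3 measured markers, Cd79a and Ms4a1 were under the detection percentile in all arrays. For thymic epithelium the sum was 457 in DKO 1, 486 in DKO 2 and 487 in DKO 3, against 494 to 548 in WT. The NK cell sum was 334 in DKO 1, 331 in DKO 2, 309 in DKO 3 and 304 to 325 in WT. Of its 6 markers, 4 were under the detection percentile in all arrays. The sum of the mature single-positive markers was 2569 in DKO 1, 2008 in DKO 2 and 2663 in DKO 3.

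Loss of a single factor called 0 ISGs, in comparisons that did not call the deleted gene either. In E2AKO the 32 differences ran from -0.46 to 0.21 with a median of -0.01, and 0 were called in limma (1 at an unadjusted p under 0.05). Of all genes, 0% were called higher and 0% lower, and 418 of 13138 had an unadjusted p under 0.05. The 1 gene was Bst2, at 7.41 and 7.31 in E2AKO, both below the WT arrays (-0.46 ± 0.17, adjusted p = 0.998). In HEBKO the differences ran from -0.29 to 0.42 with a median of 0.06, and 0 were called (2 at an unadjusted p under 0.05, Ifit2 and Ifi35). Of all genes, 0.274% were called higher and 0.632% lower, and 2190 of 13138 had an unadjusted p under 0.05. The largest was Samhd1 at 0.42 ± 0.34 (adjusted p = 0.586), for which HEBKO 1 lay above all WT arrays and HEBKO 2 within them. With array weights Ifit2 was called in HEBKO.

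DKO was also compared with each single knockout, which shares its DKO arrays with the comparison above. Against E2AKO, 6 of 32 ISGs were higher and 0 lower (5.1% of all genes higher, 3.97% lower). They were Samhd1 (2.53 ± 0.34, adjusted p = 0.000713), Ifi35 (0.76 ± 0.12), Irf9 (0.74 ± 0.21), Oas3 (0.66 ± 0.15), Irf1 (0.61 ± 0.11) and Ddx58 (0.58 ± 0.13). Without DKO 1 the count was also 6, with Ifit1 called and Irf9 lost. Ifit1 passed the intensity filter only through the DKO arrays, so its place in this count is no separate support. In that fit Samhd1 was at 2.51 ± 0.39, Ifi35 at 0.76 ± 0.13 and Oas3 at 0.55 ± 0.15. Without E2AKO 1 the count was 2, Ifi35 and Samhd1, while 2.45% of all genes were called higher.

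Against HEBKO, 3 ISGs were higher and 0 lower (2.15% of all genes higher, 1.48% lower), namely Samhd1 (2.20 ± 0.34, adjusted p = 0.00408), Ddx58 (0.52 ± 0.13, adjusted p = 0.0424) and Irf1 (0.47 ± 0.11, adjusted p = 0.0392). Only Samhd1 was left without DKO 1, DKO 3, WT 3 or HEBKO 1, and 0 without HEBKO 2, where 0.893% of all genes were called higher. In the fit without DKO 1, Samhd1 was at 2.19 ± 0.39, Ddx58 at 0.44 ± 0.13 and Irf1 at 0.43 ± 0.13. With the replicate number as a block, Samhd1 alone was called. Ifi35 was 0.25 ± 0.12 higher than in HEBKO (adjusted p = 0.323).

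Genes upstream of the ISGs were taken from a list of 37 ligands, receptors, kinases, sensors, adaptors and inhibitors, of which 33 were on the array and 24 were tested. In DKO 7 rose and 3 fell, with a median of 0.12, where 8.18% of all genes tested were called higher and 5.41% lower. In HEBKO and E2AKO 0 were called. Without DKO 1, 6 rose and 3 fell (6.59% and 4.16% of all genes). The one lost was Mavs, the adaptor of RIG-I, at 0.31 ± 0.09 with DKO 1 (adjusted p = 0.0442) and 0.32 ± 0.11 without (adjusted p = 0.0806).

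Among sensors and adaptors, Sting1, the adaptor of cytosolic DNA sensing, was 7.88, 7.90 and 7.85 in WT, and 9.80, 9.43 and 9.77 in DKO. Values were 7.56 and 8.15 with E2A alone lost and 8.86 and 8.09 with HEB alone lost. All DKO arrays lay above all others, and it rose by 1.79 ± 0.20 (3.46-fold, adjusted p = 9.89e-05). Ikbke, a kinase that activates IRF factors, was 8.90, 8.91 and 9.12 in WT and 10.09, 9.98 and 10.12 in DKO, with a rise of 1.09 ± 0.11 (adjusted p = 4.75e-05). In neither gene did DKO 1 stand apart from DKO 3, and without DKO 1 the differences were 1.72 ± 0.22 and 1.08 ± 0.13.

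The receptor of interferon gamma moved in opposite directions. Ifngr1, its ligand-binding chain, fell by 0.75 ± 0.15 (11.37, 11.82 and 11.55 in WT, 10.80, 10.98 and 10.72 in DKO, adjusted p = 0.00587), and Ifngr2, its signalling chain, rose by 0.48 ± 0.10 (adjusted p = 0.00615). Il10rb, shared by the receptors of interleukin 10 and interferon lambda, rose by 0.52 ± 0.12. Ifnar1 and Ifnar2, the type I receptor, were at 0.06 and -0.11 and were not called. The kinase Jak1 rose by 0.44 ± 0.09. Without DKO 1, Ifngr1 was at -0.73, Ifngr2 at 0.50, Il10rb at 0.50 and Jak1 at 0.45, all 4 called, and Ifnar1 and Ifnar2 at 0.10 and -0.19, neither called.

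Of 5 tested inhibitors 2 fell and 1 rose. Socs1 and Socs3, which bind receptors and JAK kinases and stop signalling, fell, and Ptpn6, the phosphatase SHP-1, rose by 0.37 ± 0.11 (adjusted p = 0.0476; 10.41, 10.70 and 10.75 in WT, 10.83, 11.10 and 11.05 in DKO). Socs1 was 8.90, 8.68 and 8.69 in WT and 8.10, 8.07 and 8.10 in DKO, a fall of 0.67 on the log2 scale (contrast -0.67 ± 0.09, adjusted p = 0.000493), and Socs3 was at -0.68 ± 0.14 (adjusted p = 0.00640). DKO arrays did not overlap WT in any of the 3. Without DKO 1, Socs1 was at -0.67, Socs3 at -0.76 and Ptpn6 at 0.45, all called. Among the ligands, Ifnb1, Ifng, Ifna4, Ifnk and Ifne lay below the filter, and Ifna2 was at -0.03. In Ifnb1 the DKO arrays ran from 4.86 to 4.90 and the WT arrays from 4.53 to 4.86, with every array under the detection percentile.

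**Figure D5:**
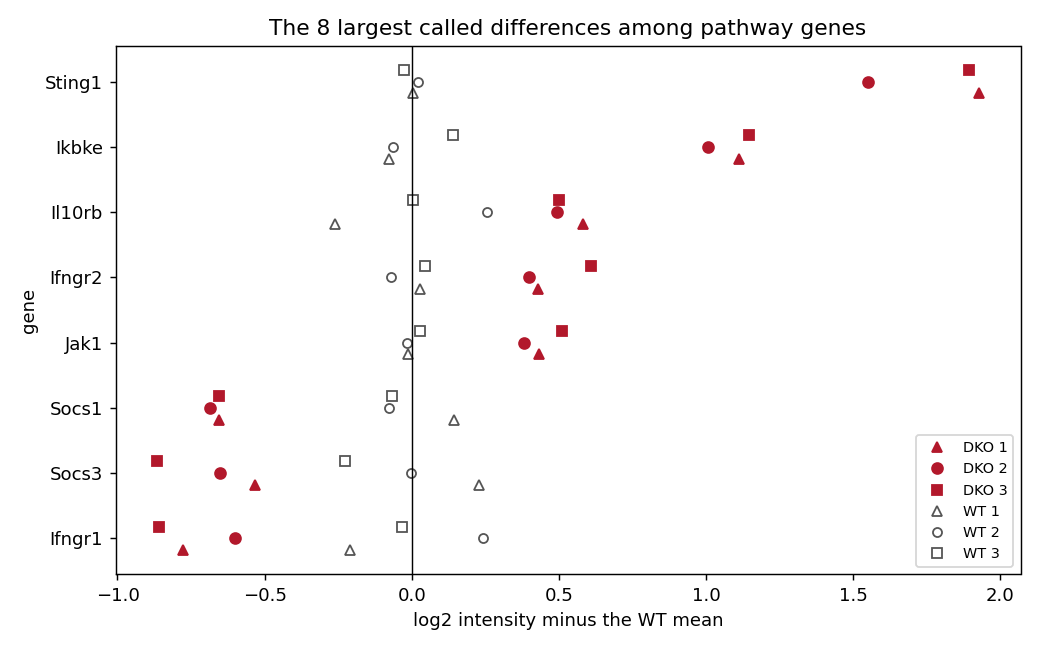
Log2 intensity minus the WT mean in the DKO arrays (filled) and WT arrays (open) for the 8 pathway genes with the largest called differences between DKO and WT. Sting1 (1.79) and Ikbke (1.09) are the highest, Ifngr1, Socs3 and Socs1 are below WT, and DKO 1 lies close to the other DKO arrays.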

How the data were processed

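Total RNA (6 µg) from about 1000000 sorted DP cells per mouse was measured on 10 arrays. Each deposited intensity, on a linear scale, was made by the authors with RMA (version not given), per the submitters' processing notes. The values were turned to log2 with no constant. Of 34760 probe sets 21640 carried 1 gene symbol, 1321 several and 11799 none, and only the first kind was used. Testing required a value at or above the 40th percentile of all probe sets on 2 or more arrays (13138 of 19937 genes).

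The 4 genotypes were fitted together, each with its own mean, in limma 3.58.1 (R 4.3.3; 6 residual and 5.68 prior degrees of freedom), with two-sided p-values, Benjamini-Hochberg adjustment across every tested gene and calls under 0.05. Errors are SE from this fit. The fitting steps were tested on simulated data with independent noise and no array set apart, so that test does not cover a case like DKO 1. The number of arrays limits the precision. The ISG list, its grouping by role, the pathway and marker lists and the alternatives were chosen with earlier results of these data known. A gene was described in every array if it was called in a comparison or lay at least 1 from the WT mean in a knockout array; others were given by values in WT and DKO or by their difference. Pathway genes were named by size of change, at most 8, beside those not called in the same receptor or ligand group. Mavs and Ptpn6 were added after their values were seen. Promoters were printed for genes called in DKO that hold the response element core before the start, with Samhd1 added after its value was seen. Same-numbered arrays were not taken as paired, since the labels name no shared litter or day. The correlations of their deviations ran from -0.29 to 0.48, with 10 of 13 over 0.1. These values do not settle whether the arrays were paired, and a fit with the replicate number as a block is among the alternatives.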

Additional observations from a re-analysis of the deposited data

How the results depend on the processing

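The fits were repeated unfiltered, with the filter raised to the 60th percentile, after quantile normalising again, with arrays shifted to 1 median, with probe sets averaged per gene, with robust and trended eBayes, with array weights (whose fit stopped before its tolerance), with the replicate number as a block, with only the groups compared, and with each array left out. Where 1 array of a group was left, it was assumed to vary like the others. ISGs called higher in DKO against WT numbered 7, and 5 to 10 over the 9 other alternatives and 4 to 8 with an array left out; of all genes 8.18% were called higher, 16.9% with array weights (the count of 10) and 4.14% without WT 3 (the count of 4). Against E2AKO the count was 6, with 5 to 8 and 2 to 7. Against HEBKO the count was 3, with 0 to 4 with an array left out, 1 with arrays shifted to 1 median, 1 with array weights, 1 with only the groups compared and 1 with the replicate block. In HEBKO against WT it was 0 with each array left out, and 1 with array weights. In E2AKO it was 0 throughout, and ISGs called lower numbered 0 in all 5 comparisons and all alternatives. With the replicate block the DKO count was 6 and the E2AKO contrast gave 8; 5 of 10 arrays matched their own number best. Samhd1, Ddx58 and Ifi35 kept their call in DKO in all 19 alternatives, and Irf1 in 18. No difference called in DKO changed sign, but without DKO 1 those of Ifih1 (0.01 to -0.24), Eif2ak2, Trim25 and Oasl1, which were not called, turned below 0. The scalings moved the median of all genes by at most 0.05. Ifit1 and Samhd1 in WT lay near the detection range, which limits their folds.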

Other observations

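All genes tested were ranked by how far DKO 1 lay above the mean of DKO 2 and DKO 3, a ranking made after the values were seen and given with no test. Of the first 40 genes 6 were listed ISGs, namely Ifit1, Rtp4, Xaf1, Irf7, Usp18 and Ifih1. Ranked the same way for DKO 2 and DKO 3, the first 40 held 0 and 1. Others of the 40 in DKO 1 were Ddx60, a helicase related to the RIG-I pathway, at 7.76 in DKO 1 against 6.61 and 6.84 in DKO 2 and 3 and 6.33 to 6.53 in WT, and Irgm1, an interferon-induced GTPase, at 9.09 against 8.17 and 8.15 and 7.68 to 8.03 in WT. Epsti1 was at 9.94 in DKO 1, 8.22 and 8.44 in DKO 2 and 3 and 9.24 to 9.67 in WT, so both other DKO arrays lay below WT. Lgals3bp was at 9.93 in DKO 1, 8.80 and 8.90 in DKO 2 and 3 and 8.71 to 9.10 in WT.

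Some genes outside the list differed more between the DKO mice than any ISG did. Gdpd3, a phospholipase, was high in DKO 1 alone, at 10.18 in DKO 1 and at 6.19 in DKO 2 and 6.20 in DKO 3, with 5.72 to 5.80 in WT. Kcnma1, a potassium channel, was at 12.99 in DKO 1, 12.19 in DKO 2 and 4.97 in DKO 3, with 4.69 to 4.84 in WT. Xist was at 11.91 in DKO 1, 5.06 in DKO 2 and 12.14 in DKO 3, with 5.28 to 12.20 in WT. Trim12a was at 9.72 in DKO 1, 9.59 in DKO 2 and 6.40 in DKO 3, with 10.05 to 10.38 in WT, and Ctse, the protease cathepsin E, at 10.90 and 10.91 but 7.63 in DKO 3, with 7.08 to 7.58 in WT. These were values of single mice and were not tested.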
